A study of Oryctolagus cuniculus with 4 samples.

Results

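The genes described here are HGF, PDGFD and IGF1, 3 secreted growth factors measured in the ligamentum flavum of rabbits. They were taken as a set from the 1489 genes that RefSeq accessions name on the array, and every probe whose accession is a rabbit transcript of 1 of them was used, 10 of 43603 probes in all. HGF had 3 probes to transcript NM_001168707, PDGFD had 2 to NM_001195762 and IGF1 had 5 to NM_001082026. The set was chosen with the levels on these arrays already known, so its differences between arrays are given as a description and no test is made of them.

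HGF is made mainly by mesenchymal cells as an inactive precursor, is cut by serine proteases such as the plasminogen activators, and acts on cells that carry the receptor tyrosine kinase MET. PDGFD is a platelet-derived growth factor that also needs to be cut before it can bind, and it signals mainly through PDGF receptor beta on fibroblasts, pericytes and smooth muscle cells. IGF1 is made in the liver under growth hormone and locally in many tissues, including muscle and tendon, where it acts through the IGF1 receptor on growth and matrix production. All 3 ligands signal through receptor tyrosine kinases.

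The ligamentum flavum is the elastic ligament between neighbouring vertebral arches. In the rabbit model, male animals were operated on at 18 weeks of age: the supraspinal muscle at L3-4 was removed, and L2-3 and L4-5 received an instrumented posterolateral fusion. Ligament was taken 16 weeks after surgery, at 34 weeks of age, and its total RNA was labelled with Cy3 and hybridised to a single-colour Agilent array. The 4 groups had 1 array each: the L3/4 level under intervertebral stress concentration (ISC), the L3/4 control, the fused levels at L2/3 and L4/5, and the L2/3, L4/5 control. The muscle removal at the ISC level and the instrumentation at the fused levels cannot be told apart here from the change of load. The sources used here do not give whether the controls were operated on, or whether animals, or L2/3 and L4/5, were pooled. The operation treats both kinds of level in 1 animal, so the ISC and fused arrays may share animals, which the labels do not say. The study asks how mechanical stress changes gene expression in this ligament.

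With 1 array a group no error between animals can be given, and precision is limited by the number of arrays. The error given with a signal is the scanner software's own estimate for that spot, a technical error within 1 array. The level of a probe is log2 of its signal minus log2 of the signal at the array's 75th percentile, and a difference is 1 level minus another. A difference of at least 2-fold, 1 on the log2 scale, is used as a fixed size and not as a test. A probe was measured on an array where the scanner software marked it as well above background, which held for 59.6% to 67.9% of probes. Where only 1 of the compared arrays measured a probe, the difference is given as a bound ("at least N-fold"), which sets the bright level against the higher of the dim probe's own level and the lowest level well above background on that array. Levels are compared between arrays for the same probe. Brightness only chose the probe that stands for a gene.

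The tissue was checked against lists of marker genes. Of 21 tendon and ligament markers 6 could be named on the array. All 6 were well above background on the ISC array and both control arrays, and 5 were at the fused levels, where the tendon marker TNMD was not. The arrays also differed in the genes of other cell types. The summed level of 17 skeletal muscle genes, in multiples of the 75th-percentile signal, was 31.1 at the ISC level and 42.3 in the L3/4 control, and 18 at the fused levels and 964 in the L2/3, L4/5 control. That of 8 neutrophil and marrow genes was 8.33 at the ISC level and 14.6 in the L3/4 control, and 318 at the fused levels and 6.83 in the L2/3, L4/5 control. The muscle genes TNNC1, CASQ1 and ATP2A1 were not well above background on the fused array, while all 17 were in the L2/3, L4/5 control, and the neutrophil gene FPR1 was well above background on the fused array only. In tissue RNA of this kind, fewer cells of a type and less RNA per cell cannot be told apart.

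HGF was high on both surgery arrays and lower in both controls. Probe A_04_P086778, the brightest of the 3, had a signal of 159 ± 16.0 at the ISC level and 30.8 ± 3.31 in the L3/4 control, and of 190 ± 19.0 at the fused levels and 15.3 ± 2.20 in the L2/3, L4/5 control. The scaled levels were 0.76 at the ISC level and −0.79 in the L3/4 control, and 1.15 at the fused levels and −2.25 in the L2/3, L4/5 control. Both surgery arrays thus lay above both controls, and the controls lay apart from each other.

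The second bright probe, A_04_P086779, gave the arrays the same order. Its signal was 63.8 ± 6.52 at the ISC level and 18.5 ± 2.21 in the L3/4 control, and 75.6 ± 7.70 at the fused levels and 9.19 ± 1.87 in the L2/3, L4/5 control. The dimmest probe, A_04_P086777, was well above background on the fused array only, with a signal of 14.9 ± 2.36, and its signals on the other 3 arrays lay between 1.53 and 5.64. A dim probe passes most readily where the level is highest, so this probe gives no separate support for the order of the arrays.

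At the ISC level HGF was higher than in the L3/4 control by 1.56 on the log2 scale with A_04_P086778 (spot error 0.21) and by 0.97, just under 2-fold, with A_04_P086779 (spot error 0.23). The fused levels were above the L2/3, L4/5 control by 3.40 and 2.81 with the same probes, and at least 1.63-fold higher with the dim probe. The median difference over all features, a feature being a named gene or an unnamed transcript, was −0.17 for the ISC level and −0.13 for the fused levels. Of 13700 features measured for the ISC level, 429 (3.13%) had a difference as high as that of HGF, as had 174 (1.27%) of 13708 for the fused levels.

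**Figure D1:**
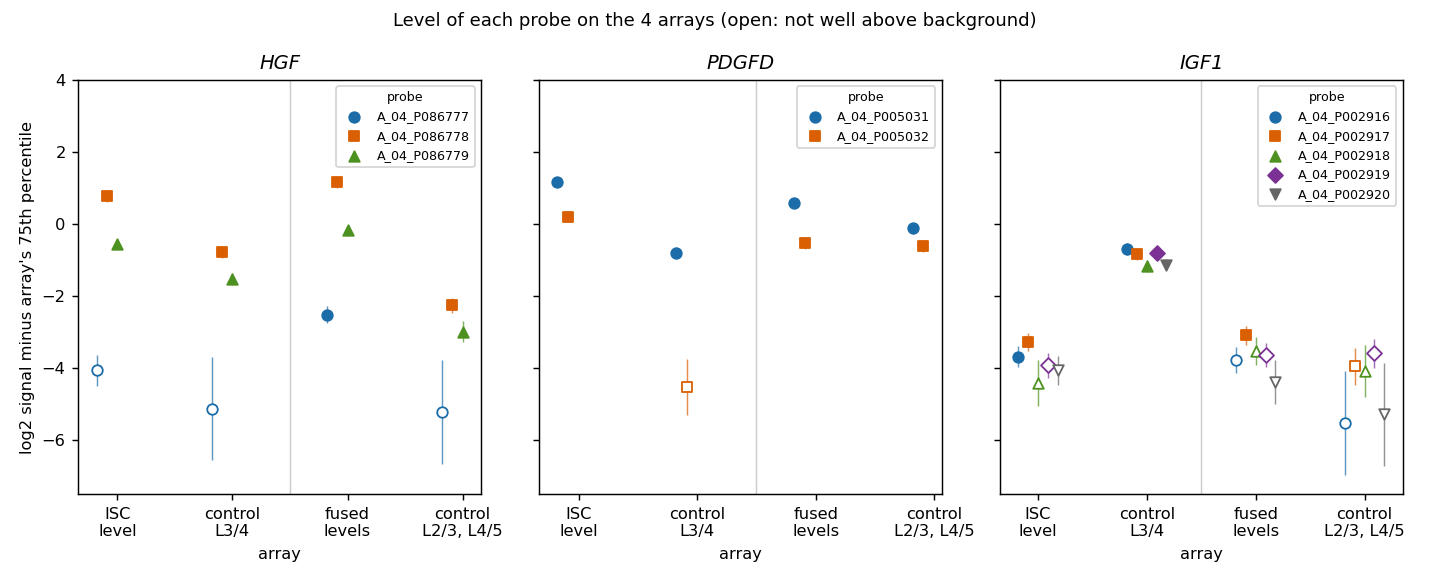
Level of each probe of HGF, PDGFD and IGF1 on the 4 arrays, as log2 signal minus the array's 75th percentile on the vertical axis, with each array in a column and bars for the spot error. Filled symbols are well above background and open symbols are not; HGF is highest on the ISC and fused arrays, the second PDGFD probe drops to −4.52 in the L3/4 control, and all 5 IGF1 probes are highest in the L3/4 control.

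The controls were not alike for HGF. The L3/4 control was above the L2/3, L4/5 control by 1.46 on the log2 scale with A_04_P086778 and by 1.46 with A_04_P086779. The size of each HGF difference therefore depended on which control was used. Set against the L2/3, L4/5 control, the ISC level was higher by 3.01 with A_04_P086778 and by 2.43 with A_04_P086779, and the first of these was the highest of the 14109 features measured on both arrays. With the L3/4 control in its place, the fused array was higher by 1.94 with A_04_P086778, by 1.35 with A_04_P086779 and at least 1.55-fold with the dim probe. These comparisons share arrays with the ones above.

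Between the surgery arrays the bright HGF probes were under 2-fold apart. The ISC level minus the fused levels was −0.39 on the log2 scale with A_04_P086778 (spot error 0.20) and −0.38 with A_04_P086779 (spot error 0.21), and the ISC level was at least 2.51-fold lower with the dim probe. This direct comparison was added after the data were seen.

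HGF was 1 of 46 of the 12715 features measured on all 4 arrays (0.362%) with both surgery arrays at least 2-fold above both controls. E2F6, PTGS2, RLA-DR-ALPHA and SPTLC1 were others of these features. PTGS2 is cyclooxygenase-2, the inducible enzyme of prostaglandin synthesis. RLA-DR-ALPHA is a chain of the rabbit's major histocompatibility complex class II. HGF was also 1 of 130 of 13161 features (0.988%) in which the L2/3, L4/5 control lay at least 2-fold below each of the other 3 arrays.

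Marker genes of other cells moved with the HGF difference at the fused levels. Beside it, 14 of 14 measured skeletal muscle genes were 2-fold or more lower, and 6 of 7 neutrophil and marrow genes were 2-fold or more higher, as were 4 of 4 adipocyte genes, whose summed level was 19.95 at the fused levels and 6.07 in the L2/3, L4/5 control. Both red blood cell genes were 2-fold or more higher as well, with a median difference of 2.08 and a summed level of 1151 at the fused levels and 272 in the L2/3, L4/5 control. The same genes were higher in the L3/4 control than in the L2/3, L4/5 control by a median of 1.52, as HGF was. The neutrophil and marrow genes were also higher there, by a median of 1.12, and 4 of 7 were 2-fold or more higher. Of 12 skeletal muscle genes 11 were 2-fold or more lower there, and the adipocyte genes had a median of −0.33. Of all features, 8.52% were 2-fold or more higher and 9.13% lower. At the ISC level the red blood cell sum was 434, against 779 in the L3/4 control. Of 3 cartilage genes 2 were 2-fold or more lower at the fused levels, and 1 of 3 lymphocyte genes was 2-fold or more higher. Of all 13708 features measured at the fused levels, 7.88% were 2-fold or more higher and 9.14% lower. The part of these cells in the HGF difference was not tested. At the ISC level, where HGF was also higher, 1 of 7 neutrophil and marrow genes was 2-fold or more lower and none 2-fold or more higher than in the L3/4 control. Of 11 skeletal muscle genes there, 1 was 2-fold or more higher and 3 lower, and of 6 macrophage and monocyte genes 3 were 2-fold or more higher, with a median difference of 0.99. Of all 13700 features measured at the ISC level, 9.18% were 2-fold or more higher and 10.6% lower. Nothing is read from counts of 1 gene. The summed level of the 8 macrophage genes was 16.7 at the ISC level and 7.80 in the L3/4 control, and 17.0 at the fused levels and 13.04 in the L2/3, L4/5 control, and its part in the HGF levels was not tested. Of these genes TLR4 and MSR1 were not well above background in the L3/4 control, nor IL1B and MSR1 in the L2/3, L4/5 control. CTSK was the brightest of them on every array, so it weighs most in each sum. Its levels were 3.68 at the ISC level and 2.41 in the L3/4 control, and 2.77 at the fused levels and 3.31 in the L2/3, L4/5 control. IL1B at −0.38 and IL1RN at −0.72 were lower at the ISC level than in the L3/4 control, and 4 of the 6 measured genes were higher. At the fused levels 4 of 6 measured genes were higher than in the L2/3, L4/5 control, with a median of 0.73. IL1RN was at 2.79 and CTSK at −0.54 there, and IL1B was at least 21.9-fold higher.

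PDGFD was highest at the ISC level and lowest in the L3/4 control with both of its probes. The brighter probe, A_04_P005031, had a signal of 210 ± 21.0 at the ISC level and 30.6 ± 3.39 in the L3/4 control, and of 128 ± 12.9 at the fused levels and 66.9 ± 6.98 in the L2/3, L4/5 control. Its scaled levels were 1.16 at the ISC level and −0.80 in the L3/4 control, and 0.59 at the fused levels and −0.12 in the L2/3, L4/5 control. On this probe the surgery arrays lay above both controls, as for HGF, but with smaller gaps at the fused levels.

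The second PDGFD probe, A_04_P005032, had a signal of 108 ± 10.8 at the ISC level and 2.32 ± 1.27 in the L3/4 control, and of 58.7 ± 6.04 at the fused levels and 47.5 ± 5.02 in the L2/3, L4/5 control. In the L3/4 control it was not well above background: before background correction its median spot signal was 32 beside a local background of 31.5. The probe was well above background on the other 3 arrays.

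At the ISC level PDGFD was thus higher than in the L3/4 control by 1.96 on the log2 scale with A_04_P005031 (spot error 0.22), and at least 10.2-fold higher with A_04_P005032. PDGFD at the fused levels was higher than in the L2/3, L4/5 control by 0.71 with A_04_P005031 and by 0.07 with A_04_P005032, both under 2-fold, and the second of these was within its spot error of 0.21. The order of the 4 arrays in PDGFD with A_04_P005032 does not separate the fused levels from the L2/3, L4/5 control. Of 13700 features, 175 (1.28%) had a difference at the ISC level as high as that of PDGFD.

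The PDGFD difference at the ISC level was smaller against the other control. Set against the L2/3, L4/5 control, the ISC level was higher by 1.28 with A_04_P005031 and by 0.81, under 2-fold, with A_04_P005032. Between the surgery arrays, the ISC level was above the fused levels by 0.57 (spot error 0.21) with A_04_P005031 and by 0.74 (spot error 0.21) with A_04_P005032. Both probes thus placed the ISC level first among the 4 arrays. The macrophage sums given above, in which CTSK was the brightest gene, were also higher at the ISC level than in the L3/4 control. Their part in the PDGFD levels was not tested.

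The PDGFD probes disagreed most in the L3/4 control. The L3/4 control was at −0.68 to the L2/3, L4/5 control with A_04_P005031 and at least 5.80-fold lower with A_04_P005032. Taken at the measured signals, the log2 differences of the probes were 3.22 apart. Over 929 transcripts with 2 probes, 1 of them well above background on all 4 arrays and the other on at least 3, the median gap was 0.39, and 7 transcripts (0.753%), PDGFD among them, had a gap as large. Such a second probe was dim on 1 array in 141 of the 929 (15.2%). The difference with A_04_P005031 is the smaller one, and it is the one carried in the counts below.

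**Figure D2:**
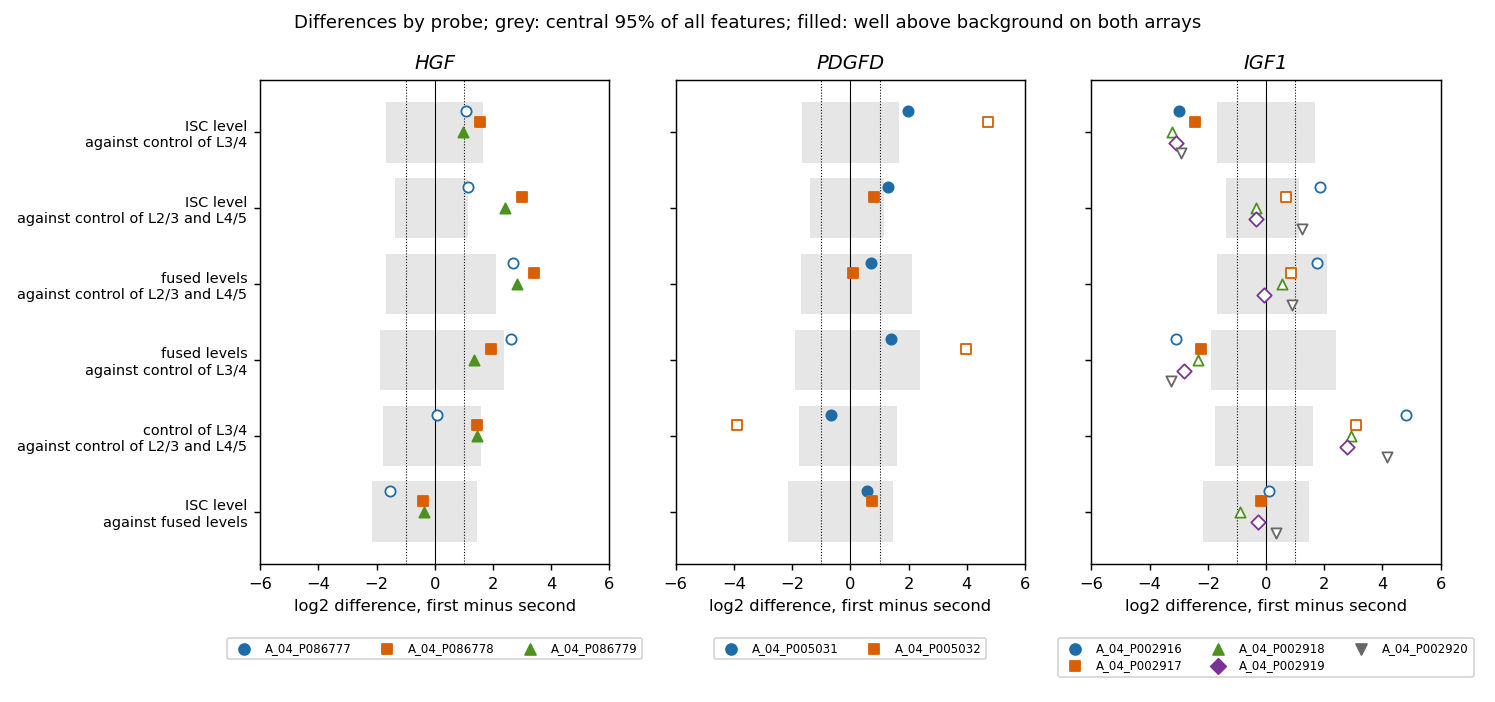
Log2 difference between arrays for each probe, first array minus second, for 6 pairs of arrays; filled symbols are well above background on both arrays, dotted lines mark 2-fold, and grey bands hold the central 95% of all measured features. HGF lies at or beyond the band for the fused levels and for the ISC level where each is set against the L2/3, L4/5 control. PDGFD lies beyond it for the ISC level against the L3/4 control and, with A_04_P005031 alone, against the L2/3, L4/5 control. IGF1 lies below it wherever the L3/4 control is second.

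IGF1 was read well in the L3/4 control and was near background on the other 3 arrays. On the ISC array 2 of 5 probes were well above background, with signals from 4.40 to 9.70, against all 5 in the L3/4 control, with signals from 23.7 to 32.9. On the fused array 1 of 5 was well above background, with signals from 4.08 to 10.03, against 0 of 5 in the L2/3, L4/5 control, with signals from 1.59 to 6.05. The array that stood out for IGF1 was thus a control.

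The brightest IGF1 probe, A_04_P002917, had a signal of 9.70 ± 1.64 at the ISC level and 29.8 ± 3.23 in the L3/4 control, and of 10.03 ± 1.77 at the fused levels and 4.72 ± 1.68, not well above background, in the L2/3, L4/5 control. Its scaled levels were −3.27 at the ISC level and −0.84 in the L3/4 control, and −3.09 at the fused levels and −3.95 in the L2/3, L4/5 control. The ISC and fused arrays differed by −0.18 with this probe, within the spot error of 0.35.

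For the ISC level minus the L3/4 control, the difference of −2.43 with that probe was accompanied by −2.98 with A_04_P002916. The other 3 probes were not well above background on the ISC array, which was at least 6.38-fold lower with A_04_P002918, at least 8.14-fold lower with A_04_P002919 and at least 6.58-fold lower with A_04_P002920. All 5 probes thus put the ISC level more than 2-fold below the L3/4 control. Of 345 named genes with at least 5 probes, 18 (5.22%), IGF1 among them, had all probes 2-fold or more lower in this comparison, dim signals included. Of 13700 features, 79 (0.577%) had a difference as low as that of IGF1.

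IGF1 at the fused levels was at least 1.09-fold higher than in the L2/3, L4/5 control with A_04_P002917, and none of the other 4 probes was well above background on either array. A difference of 2-fold could not be read there at this signal. The fused array lay at −2.25 to the L3/4 control with A_04_P002917 and at least 5.10-fold to at least 7.58-fold lower with the other 4 probes.

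The L3/4 control itself was at least 5.19-fold higher in IGF1 than the L2/3, L4/5 control with A_04_P002917, and the 5 bounds ran from 4.13-fold to 5.74-fold. A low IGF1 value of the ISC level was therefore seen against the L3/4 control alone. Against the L2/3, L4/5 control, where no probe was read, the ISC level was at 0.68 with A_04_P002917 (spot error 0.57). IGF1 was 1 of 662 of 14293 features (4.63%) in which the L3/4 control lay at least 2-fold above each of the other 3 arrays, dim arrays taken at their bound. Among the 1001 named genes there were 47 such.

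Several marker lists held genes that were low at the ISC level beside IGF1, among them those of smooth muscle and pericytes and of endothelium. The median differences of the red blood cell genes and of the neutrophil and marrow genes were −0.85 and −0.84 there. The summed level of 6 smooth muscle and pericyte genes was 31.0 at the ISC level and 73.3 in the L3/4 control, and 42.9 at the fused levels and 66.1 in the L2/3, L4/5 control, and 3 of the 6 were 2-fold or more lower at the ISC level. Between the controls, TPM1 at −2.09 and DES at −4.85 were lower in the L3/4 control. The other 4 genes were higher there, with MYH11 at 1.28. TPM1 was the brightest of the 6 in the L2/3, L4/5 control, at 4.81, so it weighs most in that sum. That array also had the skeletal muscle sum of 964, whose part in TPM1 and DES was not tested. For the fused array minus the L2/3, L4/5 control, TPM1 was at −2.73 and DES at −4.28, both 2-fold or more lower. The other 4 genes ran from −0.82 to 0.55 in that comparison, 2 of them above 0. The summed level of 4 endothelial genes was 2.10 at the ISC level and 2.87 in the L3/4 control, and 7.44 at the fused levels and 2.08 in the L2/3, L4/5 control. Of these 2 were 2-fold or more lower at the ISC level. At the fused levels 1 of 3 measured endothelial genes, VCAM1 at 2.21, was 2-fold or more higher than in the L2/3, L4/5 control. SOX17 was at −0.04 there and SELE at 0.55, and 7.88% of all features were 2-fold or more higher there. Of 4 lymphocyte genes 2 were likewise 2-fold or more lower at the ISC level, and of 3 cartilage genes none was 2-fold apart. Of all 13700 features, 9.18% were 2-fold or more higher at the ISC level and 10.6% lower. Other lists went the other way: 3 of 6 macrophage and monocyte genes were 2-fold or more higher, with a median of 0.99. The adipocyte genes had a median of 0.49, with 1 of 4 2-fold or more higher and 1 lower. The part of these cells in the IGF1 levels was not tested. The tendon and ligament sum was 739 at the ISC level and 637 in the L3/4 control, and 575 at the fused levels and 708 in the L2/3, L4/5 control.

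Set side by side by their brightest probes, 2 of the 3 genes were 2-fold or more higher and 1, IGF1, was 2-fold or more lower at the ISC level than in the L3/4 control. Of all 13700 features measured there, 9.18% were 2-fold or more higher and 10.6% lower. At the fused levels 1 of the 2 measured genes, HGF, was 2-fold or more higher than in the L2/3, L4/5 control, beside 7.88% higher and 9.14% lower of 13708 features. Between the controls, HGF was 2-fold or more higher and PDGFD under 2-fold apart in the L3/4 control, beside 8.52% higher and 9.13% lower of 13116 features. With normexp background correction, whose offset exceeds the dim signals, none of the 3 reached 2-fold at the ISC level, with HGF at 0.89, PDGFD at 0.96 and IGF1 at −0.86, and the median over its probes put HGF at 0.97. The genes were chosen with these values known, so nothing is read from their counts.

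Against the other controls, HGF and PDGFD were 2-fold or more higher at the ISC level than in the L2/3, L4/5 control, beside 3.55% higher and 5.05% lower of 14109 features. At the fused levels HGF and PDGFD were 2-fold or more higher and IGF1 2-fold or more lower than in the L3/4 control, beside 11.2% higher and 13.0% lower of 13325 features. Between the ISC and the fused levels none of the 3 brightest probes was 2-fold apart, beside 14.8% of 14551 features that were.

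**Figure D3:**
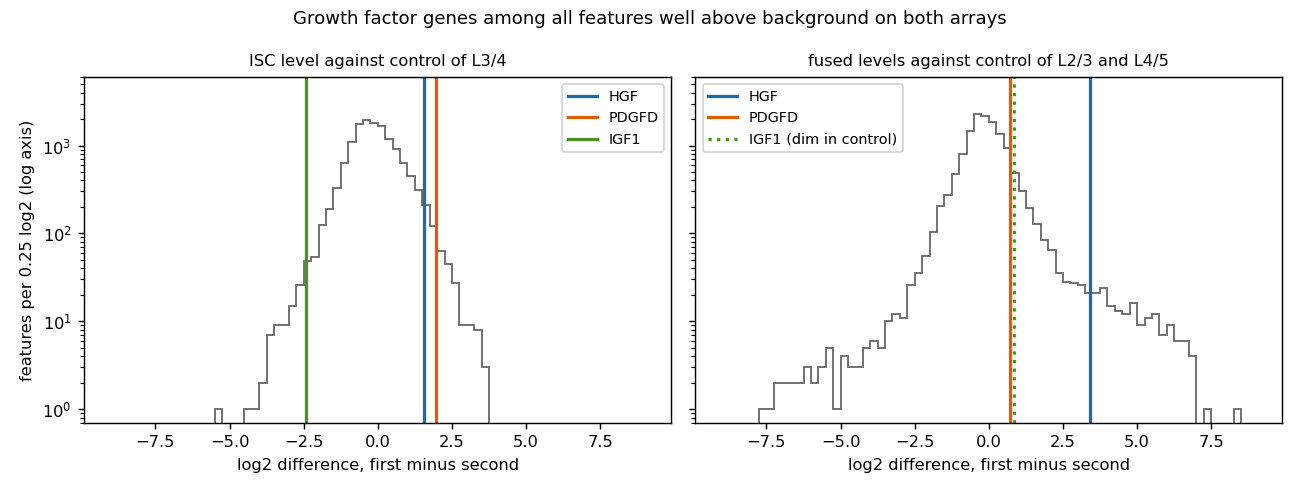
Number of features (log axis) per 0.25 of log2 difference for the ISC level against the L3/4 control and for the fused levels against the L2/3, L4/5 control, with vertical lines at the values of HGF, PDGFD and IGF1 by their brightest probes. At the ISC level HGF (1.56) and PDGFD (1.96) lie on the right and IGF1 (−2.43) on the left; at the fused levels only HGF (3.40) lies far to the right, and the dotted IGF1 line marks a value that was not well above background in the control.

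Few other genes of these pathways could be named on the array. Of the 24 genes listed for HGF and its processing, 4 were named, of 25 for the PDGF axis 5, of 27 for the IGF axis 3 and of 42 for receptor tyrosine kinase signalling 4. MET, the HGF receptor, had 1 probe, which was not well above background on any of the 4 arrays, so no difference can be given for it. The receptors of PDGFD and IGF1 were not among the genes named here.

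The array named both plasminogen activators, proteases that can cut the HGF precursor. PLAU, the urokinase type, was at 0.56 at the ISC level and 1.01 at the fused levels against their own controls by its brightest probe. Its 3 probes ran from 0.07 to 1.28 at the ISC level and from −0.58 to 1.01 at the fused levels, so its sign at the fused levels depended on the probe. PLAT, the tissue type, was at 0.00 at the ISC level and 0.45 at the fused levels on its only probe.

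Of the other genes on the PDGF list, KDR, a receptor for vascular endothelial growth factor on endothelial cells, was at −1.32 at the ISC level with the 1 measured probe of 6. KDR was not well above background on the fused array or in the L2/3, L4/5 control. KITLG, the ligand of the receptor kinase KIT, was at −0.23 at the ISC level and 0.10 at the fused levels.

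On the IGF list, GHR, the growth hormone receptor through which IGF1 is induced, was under 2-fold apart in both comparisons. Its difference was 0.32 at the ISC level, with 4 probes from 0.20 to 0.34, and 0.59 at the fused levels, with 4 probes from 0.49 to 0.64. SOCS2, a feedback inhibitor of growth hormone signalling, was higher at the ISC level by 1.22, with 2 probes at 0.98 and 1.22, and at 0.00 at the fused levels. IGF1 and SOCS2 thus had opposite signs at the ISC level. SOCS2 was at −0.79 in the L3/4 control against the L2/3, L4/5 control and at 0.43 at the ISC level against the L2/3, L4/5 control, so its difference at the ISC level too was largest against the L3/4 control.

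Of the 4 kinases named on the list of receptor signalling, MAP2K1, the kinase that activates the ERK kinases, was at least 4.00-fold higher on the ISC array with its brightest probe. Its other 4 probes, measured on both arrays, were higher by 0.69 to 0.93, under 2-fold. MAP2K1 was at −1.62 at the fused levels, with 5 probes from −1.62 to −1.04. RPS6KB1, a kinase downstream of mTOR, was at −0.27 at the ISC level and −0.70 at the fused levels. PRKCA, a widely expressed protein kinase C, was at −0.36 at the ISC level and at least 2.11-fold lower on the fused array, where its other probe was at −0.06. PRKCB, a protein kinase C abundant in blood cells, was at −2.58 at the ISC level and 3.52 at the fused levels on 1 measured probe of 6 in each.

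Of 45 growth factor ligands listed, 16 were named, and HGF, PDGFD and IGF1 are 3 of these. At the ISC level 12 were measured, of which 5 were 2-fold or more higher and 4 lower, beside 9.18% higher and 10.6% lower of all features, and the median difference was −0.29. Likewise 12 were measured at the fused levels, of which 1 was 2-fold or more higher and 2 lower, beside 7.88% higher and 9.14% lower of all features, and the median was 0.14. The counts include the 3 genes chosen with their values known, so nothing is read from them. HGF was the ligand that was higher at the fused levels.

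HGF and PDGFD were the largest of the 5 higher ligand differences at the ISC level apart from the bound of FGF1, which was at least 3.77-fold higher, and the others were TGFB2, PTHLH and FGF2. The 4 lower ligands were IGF1, FGF7, LIF, a cytokine of the interleukin-6 family, at −1.77, and the bone morphogenetic protein BMP4 at −1.31. PTHLH, the parathyroid hormone-like hormone, was at 1.19 at the ISC level and −1.59 at the fused levels. FGF1, an acidic fibroblast growth factor, was at −1.17 at the fused levels. MDK, the growth factor midkine, was at −0.62 at the ISC level and 0.73 at the fused levels, and BMP2, a bone morphogenetic protein, at −0.35 at the ISC level and −0.80 at the fused levels. The ligands GDF5, CSF2 and IL6 were not well above background on any array.

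**Figure D4:**
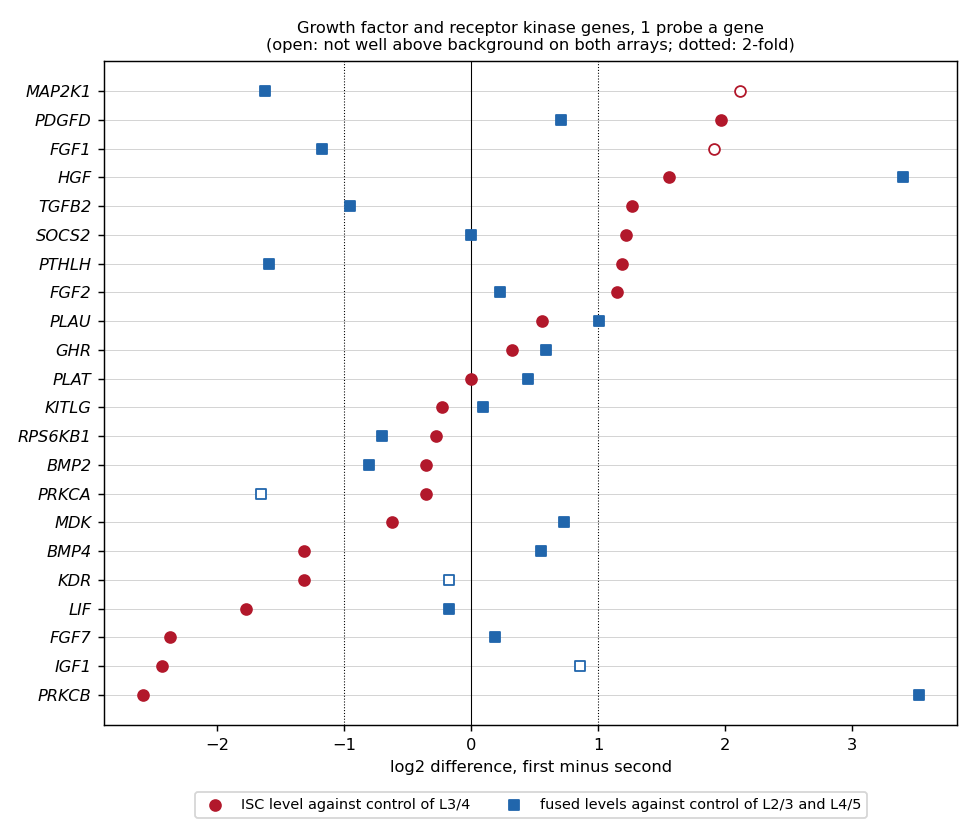
Log2 difference of growth factor, receptor and kinase genes, 1 probe a gene, with circles for the ISC level against the L3/4 control and squares for the fused levels against the L2/3, L4/5 control; open symbols were not well above background on both arrays and dotted lines mark 2-fold. HGF lies on the right in both comparisons (1.56 and 3.40), IGF1 lies on the left for the ISC level (−2.43), and PRKCB has the widest gap between its symbols (−2.58 and 3.52).

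Named genes were also ranked by how like their 4-array profile was to that of each of the 3 genes, as the root mean square difference of log2 levels centred on their mean. The points are only 4 arrays, so this is a description of those arrays. Nearest to HGF among 883 genes were PTGS2 at 0.47, PSAT1 at 0.57, SORL1 at 0.65 and RLA-DR-ALPHA at 0.66. PTGS2 had levels of −0.74 at the ISC level and −2.05 in the L3/4 control, and of −0.08 at the fused levels and −2.52 in the L2/3, L4/5 control.

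Nearest to PDGFD among 883 genes were NDNF at 0.22, SLC10A1 at 0.24, ATP1B3 at 0.26, TENT5A at 0.27 and MME at 0.28. NDNF, a secreted neurotrophic factor, had levels of −0.03 at the ISC level and −2.15 in the L3/4 control, and of −0.56 at the fused levels and −0.87 in the L2/3, L4/5 control. MME is the cell-surface peptidase neprilysin. Profiles that vary less over the arrays tend to give smaller distances, so distances are not compared between HGF, PDGFD and IGF1. The PDGFD ranks rest on its brighter probe alone. The second probe, not well above background in the L3/4 control, was not used for them.

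Nearest to IGF1 among 913 genes were LARK at 0.40, FGF7 at 0.40 and PRKG1 at 0.45. IGF1 was well above background on 3 of the 4 arrays, so these distances and ranks rest in part on a dim signal in the L2/3, L4/5 control. FGF7, a mitogen that fibroblasts make for epithelial cells, had levels of −2.83 at the ISC level and −0.46 in the L3/4 control, and of −2.36 at the fused levels and −2.55 in the L2/3, L4/5 control. PRKG1 is the cGMP-dependent kinase of smooth muscle. For IGF1 and FGF7 alike, the L3/4 control was the array that stood above the other 3.

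**Figure D5:**
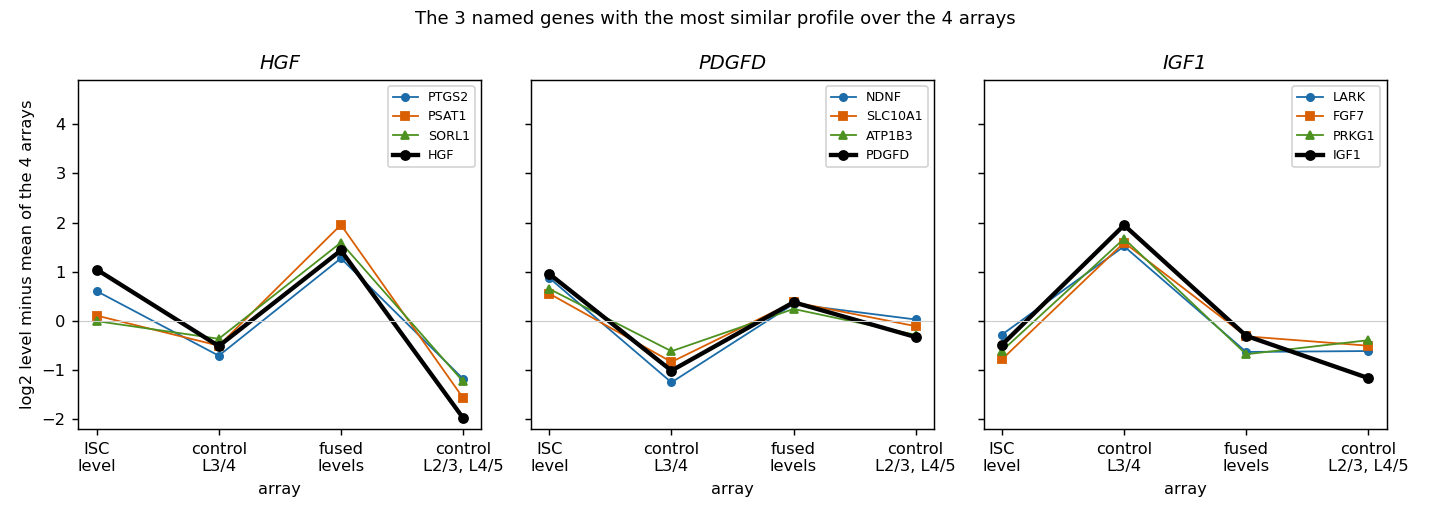
Level of HGF, PDGFD and IGF1 (thick lines) and of the 3 named genes nearest to each, centred on each gene's mean over the 4 arrays, on a log2 axis with 1 position per array. HGF and its neighbours are higher on the ISC and fused arrays than on either control, PDGFD and its neighbours are lowest in the L3/4 control, and IGF1 and its neighbours are highest there.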

How the data were processed

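The deposited scanner files hold spot intensity on a linear scale, for which the submitters' processing notes name Agilent Feature Extraction 12.0.3. The processed signal is background-subtracted and detrended within each array, per the file headers. The authors' deposited value table holds intensity equal to that signal times 1 factor per array (23.3 for the ISC array, 37.5 for the L3/4 control, 24.7 for the fused array and 29.3 for the L2/3, L4/5 control), so its scale, direction and lack of centring are known, and the choice of factors is unknown. Its medians were 515.5, 442.3, 498.4 and 504.0 in that order. It was used only as an alternative.

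Control spots and 3 to 7 outlier spots on each array were dropped (0 were saturated), spots of a probe were averaged, and log2 of the signal was taken minus that of each array's 75th percentile (93.8 for the ISC array, 53.4 for the L3/4 control, 85.4 for the fused array and 72.8 for the L2/3, L4/5 control). Replicate spots of 50 probes had a median SD of log2 signal of 0.116 to 0.148. All arrays lie on 1 slide. Accessions named 3792 of 43603 probes (8.70%) through a RefSeq table of assembly mOryCun1.1, used for names alone. This gave 22904 features and 1489 named genes. The probe shown for a gene is the one with the highest mean scaled signal. No columns of other samples were found (0).

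Named genes are the 3 members, every named gene of the HGF, PDGF and IGF lists, members of the other 2 pathway lists at least 2-fold apart, and the nearest of the 5 most similar profiles. Some genes that this rule names, and 1 marker list, are not reported here. The other ligands and kinases named, and the genes with both surgery arrays above both controls, were named after their values were seen. Members, 5 pathway lists, 11 marker lists and comparisons were chosen with earlier results of these data known. The computation was tested on simulated data. No test was made, since each group has 1 array. Normexp was planned on mean spot signals, and median spot signals were used. Python 3.11.15, pandas 2.3.3, numpy 2.4.6, matplotlib 3.10.9, R 4.3.3 and limma 3.58.1 were used, limma for normalization alone. Sequences of the probes and of the genes were not used here.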

Additional observations from a re-analysis of the deposited data

Results flagged for a closer look

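The genes of the pathway lists were searched for effects of opposite sign at the ISC level and at the fused levels. Beside HGF, PDGFD and IGF1 themselves, genes were kept only if well above background on all 4 arrays and at least 2-fold apart from the own control at both. This left 3 genes, and the difference between the effects was not tested, with 1 array a group. IGF1 was at −2.43 at the ISC level and, from a signal that was too dim to measure in the L2/3, L4/5 control, at 0.86 at the fused levels on the log2 scale, a difference of −3.29. At its bound the fused array was only at least 1.09-fold higher, so the size of this IGF1 difference is not measured. For PRKCB the effects were −2.58 at the ISC level and 3.52 at the fused levels, a difference of −6.11, on 1 measured probe of 6. For PTHLH they were 1.19 at the ISC level and −1.59 at the fused levels, a difference of 2.78, on its only probe. The controls themselves were more than 2-fold apart in these genes: the L3/4 control was at least 5.19-fold higher than the L2/3, L4/5 control for IGF1, and was at 3.08 for PRKCB and at −1.58 for PTHLH.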

How the results depend on the processing

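No paired analysis was possible because each group has 1 array, so the groups share fewer than 2 replicate numbers, and those numbers were given in accession order and pair no samples. The values below are log2 differences of HGF, PDGFD and IGF1, in that order, at the ISC level against the L3/4 control, then at the fused levels against the L2/3, L4/5 control, then between the controls. With normexp, whose offset of 50 exceeds the dim signals, they were 0.89, 0.96 and −0.86, then 1.68, 0.41 and 0.016, then 0.51, −0.18 and 0.77. With the mean over probes they were 1.20, 3.34 and −2.94 at the ISC level, 2.97 for HGF and 0.39 for PDGFD at the fused levels, and 1.0004 for HGF and −2.29 for PDGFD between the controls. With the median over probes they were 0.97, 3.34 and −3.08 at the ISC level, 2.81 for HGF and 0.39 for PDGFD at the fused levels, and −2.29 for PDGFD between the controls. These means and medians take dim signals as they stand, among them that of the second PDGFD probe in the L3/4 control and those of IGF1 on the ISC array. The values of 3.34 and −2.29 for PDGFD, and of −2.94 and −3.08 for IGF1, are thus not measured differences. Against the other control they were 3.01, 1.28 and, with the sign turned, 0.68 at the ISC level, and 1.94, 1.39 and −2.25 at the fused levels. Against the mean of the controls they were 2.28, 1.62 and −0.88 at the ISC level, and 2.67, 1.05 and −0.70 at the fused levels.

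HGF and PDGFD kept their sign in all 11 alternatives for the ISC level and all 11 for the fused levels, with values at the ISC level from 0.89 to 3.01 for HGF and from 0.96 to 3.34 for PDGFD. The highest PDGFD value includes the dim signal of its second probe in the L3/4 control. Dropping the filter on dim probes, or requiring all 4 arrays well above background, changes only which features are counted. Those alternatives return the same value for a gene, so their agreement was fixed in advance. IGF1 kept its sign in 9 of 10 at the ISC level and 8 of 10 at the fused levels. The requirement of all 4 arrays well above background gave no value for IGF1. Scalings by quantiles, cyclic loess and centring, and the authors' scaling, moved no difference of the 3 genes beyond its spot error. The authors' scaling put the median of all features at −0.04 for the ISC level, against −0.17 here.

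Features at least 2-fold apart numbered 2710 at the ISC level, 2333 at the fused levels and 2315 between the controls. With normexp these were 527, 705 and 422, with no filter on dim probes 5989, 5224 and 5623, at 1.5-fold 6105, 5058 and 5131, and at 3-fold 812, 967 and 767. For the ISC level they were 1214 against the other control and 1097 against the mean of the controls. Of calls, 46.4% were higher at the ISC level, 58.7% with the authors' scaling and 66.2% with normexp. At the fused levels 46.3% were higher, 62.8% with normexp, and between the controls 48.3%, 34.8% with normexp. The causes of these shifts were not tested.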
